A study of Mus musculus with 4 samples.

Results

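The 10 mouse apolipoprotein genes Apoa1, Apoa2, Apoa4, Apoa5, Apob, Apoc1, Apoc2, Apoc3, Apoe and Apom were followed through every probe set whose only gene symbol in the platform annotation is one of them. They are 10 of the 18193 genes that the annotation names in this way. There were 16 such apolipoprotein probe sets among 45037 that are not controls, and 13 of them, for 8 of the 10 genes, were detected well enough to be tested. The samples were mesothelial and submesothelial cells, the sheet covering the liver and the cells directly beneath it, removed by surgery from livers of C57BL/6 embryos at embryonic day 17.5. The p57-/- group (2 arrays) came from embryos that lacked p57, also named Kip2, the cyclin-dependent kinase inhibitor that Cdkn1c encodes, and the p57+/+ group (2 arrays) came from wild-type embryos. Titles place 1 array of each genotype in experiment 1 and 1 in experiment 2, numbers that serve here as replicate numbers. No source used here tells what an experiment shared, how many embryos made a sample or how p57 was removed, so the p-values reflect only how far these samples differ, and part of that may be technical.

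Apolipoproteins are the protein part of lipoproteins, the particles that carry triglyceride and cholesterol through blood. Apolipoprotein B is the scaffold of very-low-density and low-density particles, and apolipoproteins A-I and A-II are the main proteins of high-density particles. The smaller C apolipoproteins and apolipoprotein E exchange between particles and tune their lipolysis and their uptake by receptors. Hepatocytes are the main liver source of nearly all of them, the intestine and yolk sac make several, and macrophages also make apolipoprotein E.

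Cdkn1c had signals of 7.79 and 7.28 on the p57-/- arrays, called Absent on both, against 10255 and 9866 on the p57+/+ arrays, so the labels and the targeted gene matched. A signal is the deposited MAS5 value of a probe set on a linear scale, after the authors had scaled every array to the same trimmed mean, and Present or Absent is the deposited detection call. Present calls made up at least 48.4% of the probe sets on every array, and the median signal was 76.0 to 82.7. In the comparison across 22800 tested probe sets, Cdkn1c was the only one past an adjusted p of 0.05 (limma, Benjamini-Hochberg), so 0.00439% of the tested probe sets were called. Both p57-/- samples held Xist, expressed from the inactive X chromosome, and the Y-linked Eif2s3y. The brightest Xist probe set had 7889 and 6412 in p57-/-, against 12199 in p57+/+ replicate 1 and 86.7 in p57+/+ replicate 2. Eif2s3y was at 966 and 904 in p57-/-, against 2.56 (Absent) in p57+/+ replicate 1 and 1734 in p57+/+ replicate 2. The p57+/+ arrays therefore differed from each other in these sex-linked genes, while the p57-/- arrays differed little. Experiment 1 thus compared p57-/- with a p57+/+ sample without detected Eif2s3y, and experiment 2 with one with low Xist. Differences between the experiments cannot be told apart from this difference.

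The samples held abundant hepatocyte transcripts beside those of the surface layers. Of 15 hepatocyte markers, 12 were tested, and their summed signal was 506040 and 470172 in p57-/-, against 430757 and 524463 in p57+/+. The brightest, Ttr, which encodes the thyroxine carrier transthyretin, had 64750 and 64745 in p57-/-, against 56858 and 74260 in p57+/+. The 10 mesothelium markers were all tested and summed to 12731 and 15149 in p57-/-, against 10910 and 13612 in p57+/+, with Alcam the brightest. The 11 macrophage markers, also all tested, summed to 36411 and 27571 in p57-/-, against 31228 and 31695 in p57+/+. In such bulk samples, fewer cells of a type and less RNA per cell cannot be told apart.

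No apolipoprotein probe set passed the test between the genotypes. Of the 13 tested, 0 passed the adjusted threshold in limma, where the background is 0.00439%, and 0 had an unadjusted p under 0.05, where the background is 7.67%. The log2 changes, p57-/- minus p57+/+, ran from -0.20 to 0.32, with standard errors of 0.11 to 0.41. Taking the brightest tested probe set of each of the 8 genes, the median log2 change was 0.08, beside 0.02 over all 11656 tested genes. Within experiment 1 the median was 0.23, and within experiment 2 it was -0.09. It was 0.02 without p57-/- replicate 1, 0.14 without p57-/- replicate 2, 0.00 without p57+/+ replicate 1 and 0.19 without p57+/+ replicate 2, and 0.03 after quantile normalization.

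**Figure D1:**
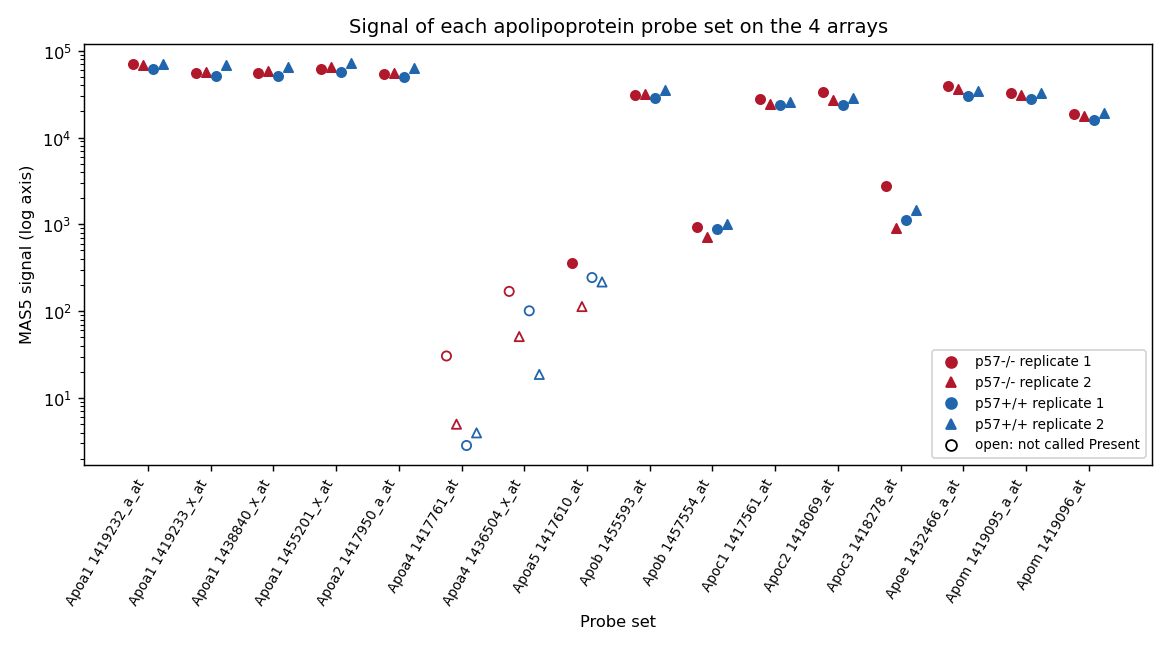
MAS5 signal (log axis) of the 16 apolipoprotein probe sets on each array, with p57-/- in red left of p57+/+ in blue, circles for replicate 1, triangles for replicate 2 and open symbols for calls other than Present. Apoa1 and Apoa2 lie between 49494 and 71932 on all 4 arrays, Apoa4 is open on all 4, and Apoc3 spreads from 903 to 2792.

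Apoa1 encodes the main structural protein of high-density lipoprotein and was read by 4 probe sets. By the platform's naming, the 3 with the suffix _x_at hold probes that can match other sequences, and the suffix _a_at of the remaining one marks transcripts of a single gene. Probe set 1419232_a_at had 70026 and 69020 in p57-/-, against 61857 and 70853 in p57+/+. Only p57+/+ replicate 1 stood below the others, and the groups overlapped. Its log2 change was 0.07 (SE 0.11, limma adjusted p = 0.898), and the 95% interval of the ratio of p57-/- to p57+/+ was 0.889 to 1.24. Probe set 1419233_x_at had 56016 and 56706 in p57-/-, against 50753 and 69294 in p57+/+, for a log2 change of -0.07 (SE 0.14). The other pair of Apoa1 probe sets had log2 changes of -0.01 (SE 0.12) and -0.02 (SE 0.13). For all 4 Apoa1 probe sets p57+/+ replicate 1 was the lowest array and p57+/+ replicate 2 the highest, so that both p57-/- arrays lay inside the p57+/+ range.

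Apoa2, which encodes the second protein of high-density particles, also had p57+/+ replicate 1 as the lowest array and p57+/+ replicate 2 as the highest. It had 54351 and 55251 in p57-/-, against 49494 and 62591 in p57+/+. The log2 change was -0.02 (SE 0.12, limma adjusted p = 0.974), with a 95% interval of the ratio of 0.810 to 1.20. The p57-/- arrays differed from each other by 0.02 on the log2 scale and the p57+/+ arrays by 0.34.

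The signals of Apoa1 and Apoa2 were at the top of the arrays' range. Apoa1 probe set 1419232_a_at was the brightest of all probe sets on both p57-/- arrays and on p57+/+ replicate 1. On p57+/+ replicate 2 it ranked 3, at 95.4% of the highest signal, 74260, which belonged to Ttr. The highest signal was 70026 and 69020 on the p57-/- arrays and 61857 on p57+/+ replicate 1. A signal was called near the ceiling here if it reached 0.5 of the highest signal of its array. All 4 Apoa1 probe sets and that of Apoa2 met this on every array, at 77.6% or more of the highest signal, and they made up 5 of the 122 probe sets that did so on all 4 arrays. Apoe met it on the p57-/- arrays, at 55.4% and 52.4%, but not on the p57+/+ arrays, at 48.3% and 45.9%. The files hold no saturation mark, so whether these signals understate a difference was not tested.

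Within Apoa1, the p57-/- arrays differed little from each other, and the brightest probe set spread least between the p57+/+ arrays. In p57-/-, replicate 2 minus replicate 1 was -0.02 on the log2 scale for 1419232_a_at and 0.02, 0.10 and 0.07 for 1419233_x_at, 1438840_x_at and 1455201_x_at. In p57+/+, the same difference was 0.20 for 1419232_a_at and 0.45, 0.33 and 0.36 for the other 3. The order of the probe sets within a gene is a description with no test.

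**Figure D2:**
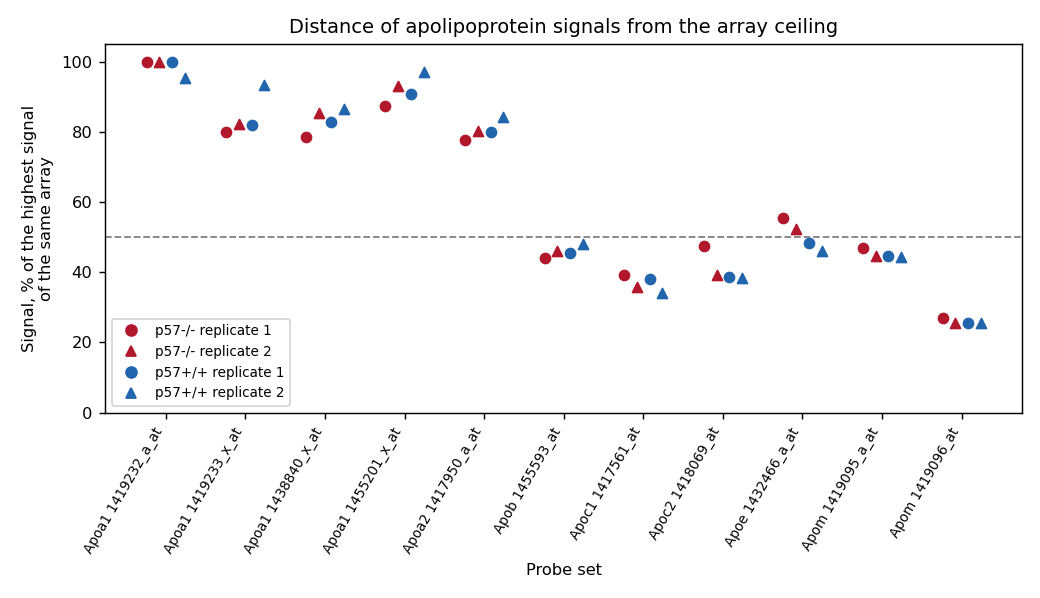
Signal of the 11 brightest apolipoprotein probe sets as a percentage of the highest signal on the same array, with p57-/- in red left of p57+/+ in blue, circles for replicate 1, triangles for replicate 2 and a dashed line at 50%. The 4 Apoa1 probe sets and Apoa2 lie at 77.6% or more, and Apoe crosses the line between the genotypes.

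Apob encodes the scaffold protein of triglyceride-rich particles and was read by a bright and a dim probe set. The bright one, 1455593_at, had 30879 and 31747 in p57-/-, against 28161 and 35638 in p57+/+, again with the p57-/- arrays inside the p57+/+ range. Its log2 change was -0.02 (SE 0.13, limma adjusted p = 0.981), with a 95% interval of the ratio of 0.811 to 1.20. The dim one, 1457554_at, had 932 and 715 in p57-/-, against 886 and 997 in p57+/+, where p57-/- replicate 2 was the lowest. Its log2 change was -0.20 (SE 0.18), the lowest among the tested apolipoprotein probe sets. It lay at 1.04% to 1.43% of the highest signal, far from the ceiling, and its interval of the ratio was 0.661 to 1.14.

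The C apolipoproteins act on lipoprotein lipase and on receptor uptake. Apoc2 encodes the activator that the lipase requires, Apoc3 an inhibitor of lipolysis and of clearance by the liver, and Apoc1 an inhibitor of receptor binding. Apoc1 had 27408 and 24608 in p57-/-, against 23640 and 25352 in p57+/+, with overlapping groups and a log2 change of 0.09 (SE 0.11). Apoc2 had 33198 and 26959 in p57-/-, against 23848 and 28409 in p57+/+. Here p57-/- replicate 1 was the highest array, and the log2 change was 0.20 (SE 0.13, limma adjusted p = 0.746).

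Apoc3 varied most among the 8 tested genes, by 3.09-fold from its lowest to its highest array. It had 2792 and 903 in p57-/-, against 1110 and 1450 in p57+/+. The p57-/- arrays were the highest and the lowest of the 4, and the p57+/+ arrays lay between them. In experiment 1 Apoc3 was 2.52 times as high in p57-/- as in p57+/+, and in experiment 2 it was 0.623 times as high. Over all 4 arrays the log2 change was 0.32 (SE 0.41, limma adjusted p = 0.873), with a 95% interval of the ratio of 0.663 to 2.36. Leaving out 1 p57-/- array leaves a single one, which limma assumes to vary like the p57+/+ pair, so only sizes of change are given. Without p57-/- replicate 2 the log2 change was 1.14 (SE 0.18, limma adjusted p = 0.0182), in a fit that called 0.430% of the tested probe sets higher in p57-/-. The array left out, at 903, lay below both p57+/+ arrays. Without p57-/- replicate 1 the log2 change was -0.49, so the direction rested on which p57-/- array was kept.

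The genes with the pattern nearest to that of Apoc3 were sought among 6888 other tested genes whose geometric mean signal reached 500. The measure was the root mean square difference between log2 profiles centred on their mean over the 4 arrays. The nearest 5 were Vnn3 (0.08), Tff3 (0.15), Fgl1 (0.20), Iigp1 (0.21) and Egfr (0.22). Vnn3, of the vanin family of pantetheinase-related proteins, had 2811 and 1068 in p57-/-, against 1230 and 1597 in p57+/+. Tff3, which encodes a trefoil peptide of mucosal surfaces, had 13935 and 5459 in p57-/-, against 5223 and 6780 in p57+/+. In both, as in Apoc3, p57-/- replicate 1 stood highest. Fgl1, which encodes a fibrinogen-like protein secreted by hepatocytes, had 6102 and 2595 in p57-/-, against 2985 and 4618 in p57+/+. With 4 arrays this likeness is a description.

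Apoe encodes the ligand that brings lipoprotein remnants to the receptors of the low-density lipoprotein family. It had 38779 and 36164 in p57-/-, against 29892 and 34057 in p57+/+. It was the only tested apolipoprotein probe set whose groups did not overlap, and the only one higher in p57-/- in both experiments. Over all tested probe sets, 19.8% did not overlap with p57-/- higher, and 27.9% were higher in p57-/- in both experiments, so 1 of 13 is below that background on either count. In the other direction 0 of 13 were lower without overlap, beside 18.8% of all tested probe sets, and 0 of 13 were lower in both experiments, beside 26.8%. Bright probe sets, chosen by a geometric mean signal limit given below, differed from that background. Of 327 bright ones of other genes, 123 were higher in p57-/- without overlap and 15 lower. In both experiments 157 of the 327 were higher and 27 lower. Of the 13 apolipoprotein probe sets, 10 were in this bright range, Apoe among them. The log2 change of Apoe was 0.23 (SE 0.11, limma unadjusted p = 0.0651 and adjusted p = 0.653), 0.38 in experiment 1 and 0.09 in experiment 2. The 95% interval of the ratio was 0.988 to 1.39. Macrophages also express Apoe, and the summed macrophage markers were highest in p57-/- replicate 1 and lowest in p57-/- replicate 2. The part of macrophages in the Apoe values was not tested.

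Apom encodes the carrier of sphingosine-1-phosphate on high-density particles. Probe set 1419095_a_at had 32760 and 30867 in p57-/-, against 27631 and 32959 in p57+/+, and 1419096_at had 18890 and 17699 in p57-/-, against 15795 and 19021 in p57+/+. The probe sets put the arrays in the same order and gave log2 changes of 0.08 (SE 0.12) each, with limma adjusted p-values of 0.901 and 0.902. In both, the p57-/- arrays lay between the p57+/+ arrays.

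Apoa4 and Apoa5 fell short of the filter, which asked for a Present call on at least 2 of the 4 arrays. Apoa4 encodes an apolipoprotein that the intestine makes in quantity in the adult, and both of its probe sets were Absent on every array. Probe set 1417761_at had 30.5 and 5.0 in p57-/-, against 2.84 and 3.97 in p57+/+, with detection p-values of 0.334 to 0.976. Probe set 1436504_x_at had 169 and 51.0 in p57-/-, against 101 and 18.7 in p57+/+. Neither genotype rose above background, so no fold is given. Apoa5, which encodes a scarce liver protein that promotes triglyceride clearance, had 356 and 113 in p57-/-, against 244 and 217 in p57+/+. It was Present only on p57-/- replicate 1 and Absent on the other 3 arrays, and the groups overlapped. No fold is given, because the p57-/- arrays averaged no more on the log2 scale than the Absent p57+/+ signals.

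Several of these genes are neighbours. In the gene order of the RefSeq annotation of GRCm38.p6, Apoa1, Apoc3, Apoa4 and Apoa5 follow each other on chromosome 9, and Apoc2, Apoc4, Apoc1 and Apoe on chromosome 7. Neighbours on chromosome 9 gave different detection calls, since Apoa1 and Apoc3 were Present on all 4 arrays and Apoa4 on none. The RefSeq promoter table of GRCm38.p6 held entries for 8 of the 10 genes, Apoc1 and Apoc3 being unmatched, and where a gene had several the entry listed first was taken. The 250 bases before the annotated start are shown for Apoa1, near the ceiling as defined above, and for its neighbours Apoa4 and Apoa5, below or near the detection limit. They are written 5′ to 3′ on the plus strand, at chr9:46228380-46228629, chr9:46240594-46240843 and chr9:46268358-46268607. Capitals mark TATAAA, the letters of a TATA box.
Apoa1: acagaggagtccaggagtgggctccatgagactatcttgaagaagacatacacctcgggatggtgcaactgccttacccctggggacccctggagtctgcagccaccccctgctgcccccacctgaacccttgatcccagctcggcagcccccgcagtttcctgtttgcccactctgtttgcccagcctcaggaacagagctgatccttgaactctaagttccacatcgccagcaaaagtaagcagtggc
Apoa4: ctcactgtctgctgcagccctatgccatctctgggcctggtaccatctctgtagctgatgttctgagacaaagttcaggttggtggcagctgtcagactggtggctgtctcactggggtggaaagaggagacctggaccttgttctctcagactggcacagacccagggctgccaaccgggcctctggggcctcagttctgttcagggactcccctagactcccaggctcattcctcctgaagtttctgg
Apoa5: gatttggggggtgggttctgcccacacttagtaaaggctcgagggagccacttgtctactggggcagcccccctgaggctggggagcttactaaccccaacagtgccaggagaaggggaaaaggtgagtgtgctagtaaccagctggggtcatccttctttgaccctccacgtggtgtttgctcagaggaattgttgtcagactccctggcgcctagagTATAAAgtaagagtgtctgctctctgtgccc

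TATAAA, searched on both strands, stood in 3 of the 8 apolipoprotein windows, those of Apoa2, Apoa5 and Apob, and in 13.0% of the 27025 windows of the same length in the table, 1 per gene. In Apoa5 it began 31 bases before the annotated start, in Apob 60 and in Apoa2 212. AGGTCA, the half-site of many nuclear receptors, stood in 1 of the 8 windows, that of Apoc2, beside 13.8% of all windows. AAAGTCCA, a form of the HNF4 site, stood in 0 of the 8, beside 1.02% of all. The motifs do not overlap each other in these windows. These are letter matches, and the arrays measured no factor at them.

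The tested apolipoprotein probe sets shared a pattern across the experiments. All 13 were higher in p57-/- in experiment 1, and 12 were lower in p57-/- in experiment 2, every one except Apoe. Over all tested probe sets, 25.0% were higher in experiment 1 and lower in experiment 2, and 20.3% had the opposite order, which no apolipoprotein probe set had. Among 327 probe sets of other genes whose geometric mean signal reached 20000, 122 (37.3%) had this pattern, and 279 (85.3%) were higher in p57-/- in experiment 1. Of the 12 tested hepatocyte markers, 0 were higher in both experiments and 1 was lower in both. The rest of that list also had opposite signs in the experiments, a count that does not give their order. The list medians were 0.20 in experiment 1 and -0.20 in experiment 2. With the 122 bright probe sets of other genes that had it, the pattern was not particular to the apolipoprotein genes. The 13 probe sets belong to 8 genes and the same 4 arrays, so they are not replicates of the genotype comparison.

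**Figure D3:**
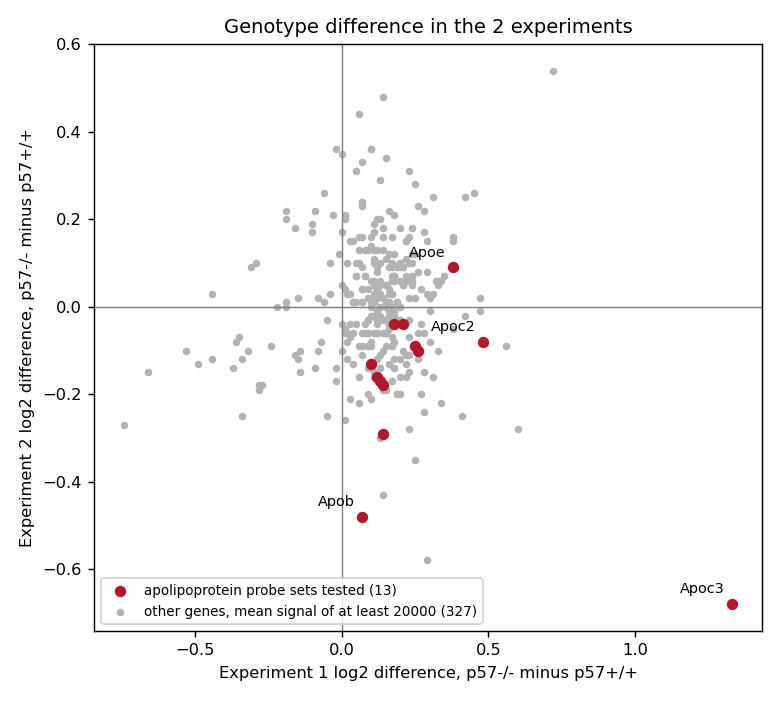
Log2 difference, p57-/- minus p57+/+, in experiment 1 (horizontal) and experiment 2 (vertical) for the 13 tested apolipoprotein probe sets (red) and 327 probe sets of other genes whose geometric mean signal reached 20000 (grey). All red points lie right of 0 and only Apoe lies above 0.

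The p57+/+ arrays also had a shared order. For 11 of the 13 probe sets p57+/+ replicate 1 was the lowest array, which held for 25.8% of all tested probe sets and for 68.5% of the 327 bright ones of other genes. In p57-/-, replicate 2 exceeded replicate 1 for 5 of the 13, and the median difference was -0.09 on the log2 scale. In p57+/+, replicate 2 exceeded replicate 1 for all 13, by a median of 0.27, beside 0.12 for the bright probe sets of other genes and 0.02 for all. The hepatocyte marker list had medians of 0.20 in experiment 1 and -0.20 in experiment 2, the same signs as the apolipoprotein genes. The part of hepatocyte content, of sex or of the top of the signal range in these differences was not tested.

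**Figure D4:**
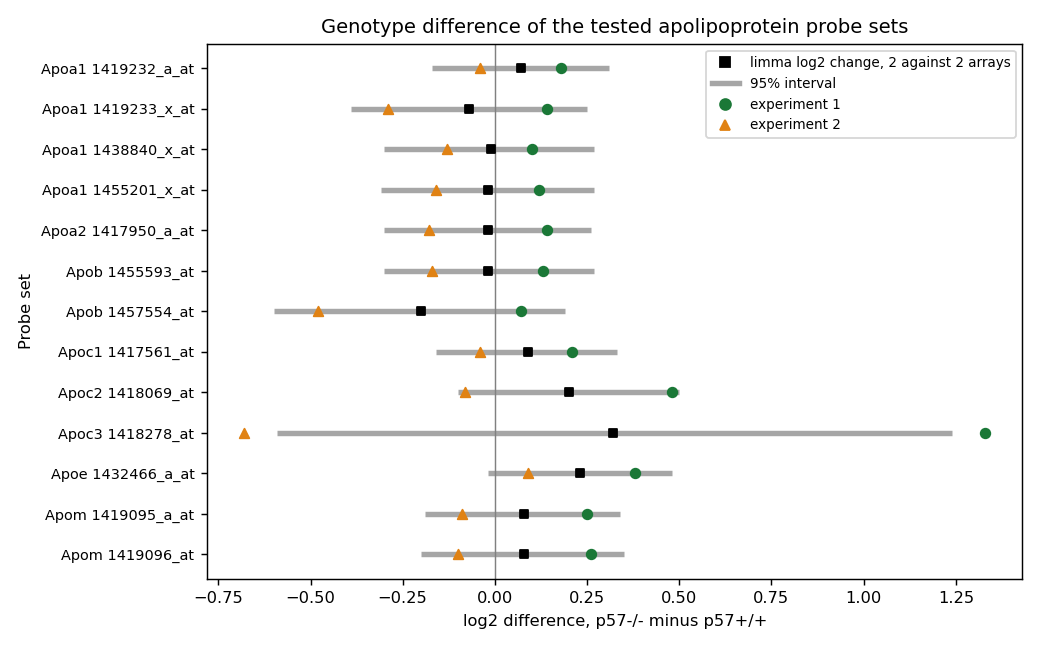
Log2 difference, p57-/- minus p57+/+, of the 13 tested apolipoprotein probe sets, with the limma log2 change from 2 against 2 arrays (black squares), its 95% interval (grey bars) and the difference within experiment 1 (green circles) and experiment 2 (orange triangles). Every interval includes 0, and the experiments fall on opposite sides of 0 for all probe sets but that of Apoe.

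Apolipoprotein genes other than the 10 followed above were taken from a list. Of 11 listed, 10 had a probe set and 8 were tested, with 0 past the adjusted threshold in limma and 1 at an unadjusted p under 0.05. None was higher in both experiments and 3 were lower, and the median log2 change was -0.16. Of all tested probe sets, 7.67% had a limma unadjusted p under 0.05. In both experiments 27.9% of them were higher and 26.8% lower. Apoh, the plasma beta-2-glycoprotein, was the brightest, with 50636 and 48899 in p57-/-, against 43099 and 50081 in p57+/+. Apol8, of the apolipoprotein L family, had the largest change, with 804 and 1699 in p57-/-, against 2233 and 2325 in p57+/+, and its log2 change was -0.96 (SE 0.28, limma adjusted p = 0.549). Apoo, whose product sits in mitochondria, had a log2 change of -0.26 (SE 0.14) and Apool of -0.12 (SE 0.14).

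Genes of lipoprotein assembly and secretion gave 0 calls of 12 tested of 16 listed in limma. At an unadjusted p under 0.05 there were 0, beside 7.67% of all tested probe sets. In this list 3 were higher in both experiments and 4 lower, beside 27.9% and 26.8% of all tested probe sets. The median log2 change was 0.04. Mttp, which encodes the triglyceride transfer protein that lipidates apolipoprotein B, had 3323 and 3352 in p57-/-, against 2929 and 2762 in p57+/+. Its groups did not overlap, and its log2 change was 0.23 (SE 0.12, limma adjusted p = 0.679). P4hb, the protein disulfide isomerase that partners it and the brightest of the list, had a log2 change of 0.04 (SE 0.12). Sar1b, a coat protein GTPase of lipoprotein export, had one of -0.20 (SE 0.12), and Tmem41b, an endoplasmic reticulum lipid scramblase gene, one of -0.29 (SE 0.16).

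Receptors and their partners gave 0 calls of 12 tested of 16 listed in limma. At an unadjusted p under 0.05 there was 1, beside 7.67% of all tested probe sets. In this list 5 were higher in both experiments and 1 lower, beside 27.9% and 26.8% of all tested probe sets. The median log2 change was 0.13. Vldlr, a receptor for triglyceride-rich particles that binds apolipoprotein E, had 948 and 695 in p57-/-, against 592 and 594 in p57+/+, for a log2 change of 0.45 (SE 0.19, limma adjusted p = 0.631). These Vldlr values come from the brightest of its 6 tested probe sets, and the others are not given. Lsr, a receptor stimulated by lipolysis, had a log2 change of 0.20 (SE 0.17). Lrpap1, the chaperone of the receptor family and the brightest of the list, had one of -0.30 (SE 0.14).

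Lipases, lipid transfer and remodelling genes gave 0 calls of 13 tested of 15 listed in limma. At an unadjusted p under 0.05 there were 3, beside 7.67% of all tested probe sets. In this list 6 were higher in both experiments and 5 lower, beside 27.9% and 26.8% of all tested probe sets. The median log2 change was 0.12. Pon1, which encodes a paraoxonase carried on high-density particles, had 5250 and 3653 in p57-/-, against 2728 and 2796 in p57+/+, for a log2 change of 0.67 (SE 0.17, limma adjusted p = 0.530). Angptl4, which encodes an inhibitor of lipoprotein lipase, had 1606 and 1101 in p57-/-, against 874 and 785 in p57+/+, for a log2 change of 0.68 (SE 0.19, limma adjusted p = 0.549). For both, each p57-/- array lay above each p57+/+ array. Lpl, the lipase itself and the brightest of the list, had a log2 change of 0.03 (SE 0.12), and Lipg, the endothelial lipase, one of -0.78 (SE 0.49) with 2 of its 4 calls Absent.

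Transcription factors known to act on apolipoprotein genes gave 0 calls of 13 tested of 17 listed in limma. At an unadjusted p under 0.05 there were 3, beside 7.67% of all tested probe sets. In this list 7 were higher in both experiments and 2 lower, beside 27.9% and 26.8% of all tested probe sets. The median log2 change was 0.12. Hnf4a, the nuclear receptor that drives many apolipoprotein genes in the liver, had 4438 and 3992 in p57-/-, against 3775 and 3896 in p57+/+, and a log2 change of 0.13 (SE 0.12). Ppara, the fatty acid sensing receptor, had 1512 and 1572 in p57-/-, against 1127 and 1067 in p57+/+, for a log2 change of 0.49 (SE 0.14, limma adjusted p = 0.549). Creb3l3, an endoplasmic reticulum-bound factor of triglyceride metabolism, had a log2 change of 0.42 (SE 0.16), and Cebpb, a leucine zipper factor, one of 0.41 (SE 0.13). The members of these pathway lists were set beside the apolipoproteins as values, and their lists were not tested against other genes.

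**Figure D5:**
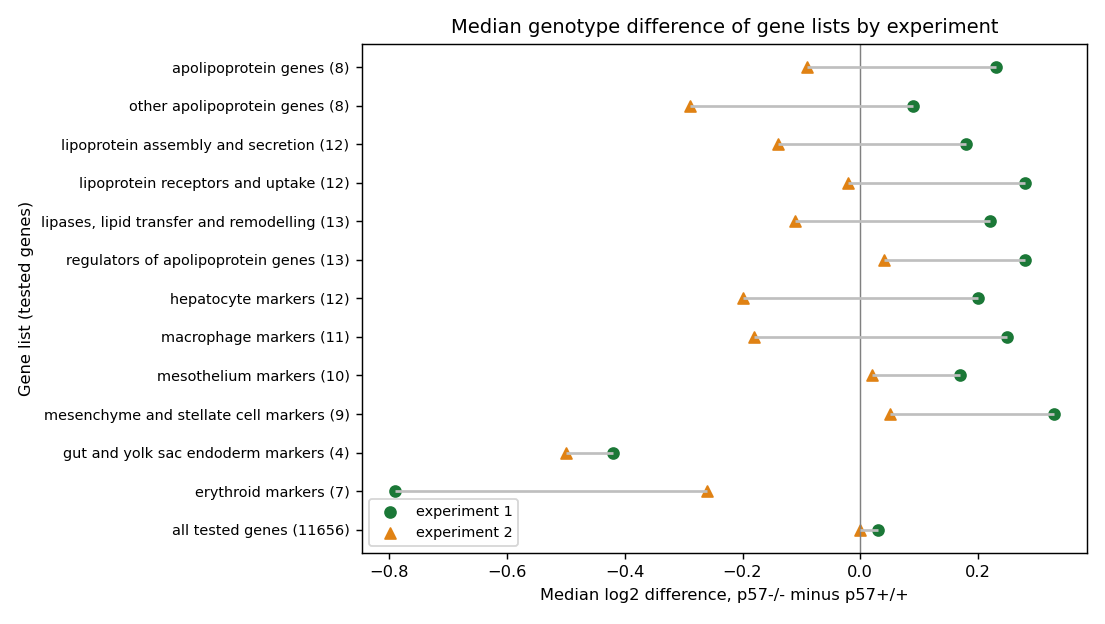
Median log2 difference, p57-/- minus p57+/+, of the tested genes of each list in experiment 1 (green circles) and experiment 2 (orange triangles), with the number of tested genes in brackets. The apolipoprotein genes lie at 0.23 and -0.09, the hepatocyte markers at 0.20 and -0.20, the erythroid markers at -0.79 and -0.26 and all tested genes near 0.

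Cell type lists other than the hepatocyte list did not all follow the apolipoproteins. No gene of the 6 cell type lists passed the adjusted threshold in limma. At an unadjusted p under 0.05 there were 16 of their 53 tested genes (30.2%), beside 7.67% of all tested probe sets. Here and in the lists above, a gene counts once by its brightest probe set, while the background counts every tested probe set. The lists were also chosen with earlier results of these data known, so the excess is a description. In the hepatocyte list Tdo2, the tryptophan-degrading enzyme, was dim and the only gene lower in both experiments, with a log2 change of -0.72 (SE 0.50).

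The 9 tested mesenchyme and stellate cell markers had medians of 0.33 in experiment 1 and 0.05 in experiment 2. Without overlap, 5 of them had p57-/- above p57+/+ and 2 below, beside 19.8% and 18.8% of all tested probe sets. The brightest, the collagen gene Col3a1, had a log2 change of 0.19 (SE 0.12). The change was 0.84 (SE 0.16) for Hhip, whose product binds Hedgehog ligands. The proteoglycan gene Dcn was at 0.53 (SE 0.16) and the growth factor receptor gene Pdgfra at 0.45 (SE 0.24). Mesothelium markers had medians of 0.17 and 0.02. Of the 10 tested, 5 were higher in both experiments and 4 lower, beside 27.9% and 26.8% of all tested probe sets. Alcam was at 0.39 (SE 0.12), the transcription factor genes Wt1 and Bnc1 at 0.64 (SE 0.21) and 0.60 (SE 0.18), and the mucin gene Muc16 at -0.56 (SE 0.25).

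The 7 tested erythroid markers had medians of -0.79 in experiment 1 and -0.26 in experiment 2, all 7 being lower in p57-/- in both experiments, beside 26.8% of all tested probe sets. Slc4a1, the red cell anion exchanger and the brightest, had a log2 change of -0.24 (SE 0.11). Klf1, a transcription factor of red cell genes, had -0.60 (SE 0.18). Rhd, which encodes a blood group antigen, and Epor, the erythropoietin receptor gene, each had -0.59 (SE 0.18). Macrophage markers had medians of 0.25 and -0.18. Their brightest, the growth factor receptor gene Csf1r, was at 0.05 (SE 0.15), Cd5l, a secreted macrophage protein gene, at -0.50 (SE 0.14), the phosphatidylserine receptor gene Timd4 at -0.38 (SE 0.19) and the complement gene C1qb at 0.28 (SE 0.15).

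Of the 9 gut and yolk sac markers, set beside Apoa4 and Apob because those tissues also make apolipoproteins, 4 were tested. Their summed signal was 427 and 463 in p57-/-, against 559 and 644 in p57+/+. Fabp2, a fatty acid-binding protein gene of the intestine, was Present on all 4 arrays, with 181 and 174 in p57-/-, against 279 and 329 in p57+/+. Alpi, an intestinal phosphatase gene, had 7.85 and 33.0 in p57-/-, both Absent, against 78.9 and 101 in p57+/+, both Present. Vil1, an actin-binding protein gene of brush borders, had 81.5 and 104 in p57-/-, both Present, against 18.0 and 54.0 in p57+/+, both Absent. The other 5, Cdx1, Cdx2, Muc2, Cubn and Amn, did not reach 2 Present calls. The part of these tissues in the apolipoprotein values was not tested.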

How the data were processed

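Total RNA of 4 samples was labelled from 250 ng with a kit that primes at the 3' end and read on single-colour Affymetrix arrays, per the labels' protocols. The authors deposited for each of 45101 probe sets a MAS5 signal, an intensity on a linear scale, with a detection p-value and call, per the submitters' processing notes and the file headers. Sources used here give neither the MAS5 version nor the scanner settings. The authors' scaling left a mean signal, after trimming 2% at each end, of 500.003 on every array. It fixes each array's average, so a change in total RNA is hidden. The deposited value table held the same intensities to within 0.0005% and was not used further.

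Signals were log2 transformed without a pseudocount. After 64 controls were left out, probe sets Present on at least 2 arrays were fitted with limma 3.58.1 (R 4.3.3, lmFit and eBayes with a variance trend, no block, two-sided), with Benjamini-Hochberg adjustment over all 22800. The fit was tested on simulated data. Log2 changes are p57-/- minus p57+/+ and intervals cover 95%. Where 1 value per gene was used, it came from the gene's brightest tested probe set by mean log2 signal. List genes are given by that probe set only, which need not stand for the others of the gene. Alcam and Tmem41b had 5 tested probe sets each and Ppara 3. Gene symbols came from the platform annotation: 34945 probe sets had 1 symbol, 932 several and 9160 none.

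The rule for named genes took all member probe sets, and from each list the brightest gene and up to 3 genes of largest change with the same sign in both experiments. It also took the 5 genes nearest to the member of widest range. Xist and Eif2s3y were named after their values were seen. Members and lists were chosen with earlier results of these data known. The alternatives were quantile normalization, a pseudocount of 16, no filter, Present on all 4 arrays, no variance trend, the experiment number as a block, leaving out each array, other probe sets per gene and other ceiling limits. The number of arrays limits the precision.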

Additional observations from a re-analysis of the deposited data

How the results depend on the processing

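No apolipoprotein probe set passed the adjusted threshold in limma under quantile normalization, a pseudocount of 16 or no filter. None passed with Present on all 4 arrays, no variance trend or the block. A fit that leaves 1 array in a genotype cannot measure the spread of that genotype. It uses the other genotype's pair, with the spread drawn toward that of all tested probe sets. For such fits only sizes of change are given, and their calls are not counted here. The median log2 change over the genes, 0.08, ranged from 0.00 to 0.19 when each array was left out, was 0.03 after quantile normalization and stayed at 0.08 in the other alternatives. The replicate block by experiment number left 0 apolipoprotein probe sets called and a median of 0.08, while calls over all probe sets went to 10 higher and 20 lower, against 0 and 1 without it. Over all probe sets, limma called 0 with Present on all 4 arrays, a filter that leaves out Cdkn1c and gave 1573 at an unadjusted p under 0.05. The deviations of same-numbered samples from their genotype means had a correlation of 0.0046 over 22800 probe sets. That value counts dim and bright probe sets alike, so it does not settle whether same-numbered samples were paired. Signs of small changes turned when single arrays were left out. The log2 changes then ranged from -0.03 to 0.17 for Apoa1 1419232_a_at, -0.30 to 0.15 for 1419233_x_at, -0.18 to 0.15 for 1438840_x_at and -0.20 to 0.16 for 1455201_x_at. They ranged from -0.19 to 0.15 for Apoa2, -0.19 to 0.15 for Apob 1455593_at, -0.49 to 1.14 for Apoc3, -0.05 to 0.20 for Apom 1419095_a_at and -0.06 to 0.21 for 1419096_at. Those of Apoe (0.14 to 0.33), Apoc1 (0.01 to 0.16), Apoc2 (0.05 to 0.35) and Apob 1457554_at (-0.39 to -0.01) kept their sign. With a limit of 0.3 of the highest signal, 10 apolipoprotein probe sets were near the ceiling on all 4 arrays, of 294 in all, and with 0.7 there were 5 of 27, beside 5 of 122 with 0.5. The cause of these movements was not tested.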
